A study of Homo sapiens with 6 samples.

Results

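The AP-1 transcription factor is a dimer of basic leucine zipper proteins, and the 10 genes described here encode its subunits: the FOS family (FOS, FOSB, FOSL1 and FOSL2), the JUN family (JUN, JUNB and JUND), ATF3, BATF3 and the small MAF gene MAFF. They were taken by name, and each matched 1 of 58336 gene identifiers in the deposited count tables. RNA was sequenced from 12Z cells, an established human line of endometriotic epithelium, in 6 libraries. In siBRG1 (n = 3) the cells received 50 nM of an siRNA against SMARCA4, the gene of BRG1, an ATPase that drives the SWI/SNF chromatin remodellers. In control (n = 3) they received a non-targeting siRNA. Both groups were grown in 10% serum and moved to 0.5% serum 48 h after transfection, and their RNA was taken at 72 h. Per the labels all control libraries came from an earlier deposit and no siBRG1 library did, so deposit and siRNA cannot be told apart for any value below. Whether the replicates are separate cultures is not labelled, so the spread behind the p-values may be technical. The protocol text also mentions a drug or vehicle, but no library carries a drug label.

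JUN proteins can pair with themselves, whereas FOS proteins bind DNA only as partners of a JUN or another basic leucine zipper protein, so the mix of subunits sets which dimers can form. FOS, FOSB, JUN and JUNB are known as immediate early genes that growth factors switch on briefly through MAP kinases, while FOSL1 and FOSL2 are known as later and more lasting members. AP-1 sites are common in enhancers of epithelial and mesenchymal cells, and SWI/SNF remodellers are known to act with AP-1 at many of them.

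Several AP-1 genes are known to be driven through cyclic AMP response elements or AP-1 sites of their own promoters, so promoter windows (250 bases before to 50 after the start, RefSeq, GRCh38.p14) were searched on both strands. Of the 10 genes 8 had 10 windows in all, and FOSL1 and BATF3 had none. TGACGTNA, a form of the cyclic AMP response element, was found in windows of FOSB, FOSL2, JUND and MAFF, and in 3.01% of 35116 windows of all genes. TGANTCA, the AP-1 site, was found only in that of FOSL2 among these 10 windows, and in 7.71% of all windows. The CArG box bound by SRF was in none of the 10 and in 1.29% of all. Sites outside these windows, or that differ from the exact patterns, were not searched, so a missing match does not mean a missing site. Palindromes matched on both strands, and no matches of different motifs overlapped. Shown are windows of JUND and MAFF, whose RNA rose, and of FOSL2, whose RNA fell, each from among those with a match to TGACGTNA. The window of FOSB, whose RNA also fell, holds such a match too and is not shown. The other window of MAFF holds no match to any of these motifs and is not shown. Capitals mark the matches, and each sequence runs 5′ to 3′ on the strand of its gene.
JUND (chr19:18281573-18281872, minus strand): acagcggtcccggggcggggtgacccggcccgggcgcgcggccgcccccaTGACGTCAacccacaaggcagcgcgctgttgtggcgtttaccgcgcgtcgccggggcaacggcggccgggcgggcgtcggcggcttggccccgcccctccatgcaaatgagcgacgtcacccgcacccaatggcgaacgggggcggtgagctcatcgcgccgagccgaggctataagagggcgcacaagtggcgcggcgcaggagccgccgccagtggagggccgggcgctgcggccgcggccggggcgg
MAFF (chr22:38201744-38202043, plus strand): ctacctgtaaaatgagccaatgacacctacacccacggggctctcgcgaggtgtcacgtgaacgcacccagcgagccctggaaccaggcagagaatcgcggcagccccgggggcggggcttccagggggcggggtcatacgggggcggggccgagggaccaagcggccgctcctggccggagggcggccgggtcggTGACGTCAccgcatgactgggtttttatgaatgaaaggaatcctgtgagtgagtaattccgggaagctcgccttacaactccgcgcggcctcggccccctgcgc
FOSL2 (chr2:28392608-28392907, plus strand): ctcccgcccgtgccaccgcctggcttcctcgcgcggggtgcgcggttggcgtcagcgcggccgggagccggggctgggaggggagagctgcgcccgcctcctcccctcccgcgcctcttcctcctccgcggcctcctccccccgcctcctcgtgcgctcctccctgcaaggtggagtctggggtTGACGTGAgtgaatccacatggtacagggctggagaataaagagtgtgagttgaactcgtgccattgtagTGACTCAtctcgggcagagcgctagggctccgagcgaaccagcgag
In JUND and MAFF the match is the full palindrome TGACGTCA, which begins 200 bases and 54 bases before the start. In FOSL2 it is TGACGTGA, 66 bases before the start. There the AP-1 site TGACTCA begins at base 5, counted from and including the start base. A match is a description of letters only.

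Gene counts came to between 12391161 and 13369692 per siBRG1 library and between 40228678 and 49720320 per control library. Levels are given as CPM, sense-strand counts scaled to library totals normalised by TMM (trimmed mean of M-values). Fold changes are log2 of siBRG1 over control, each with a standard error (SE), and p-values come from edgeR's quasi-likelihood test, adjusted over all genes tested. SMARCA4, the siRNA target, stood at 60.5, 78.9 and 50.6 CPM in siBRG1 against 244, 266 and 262 CPM in control (log2 fold change −2.03 with an SE of 0.161, adjusted p = 0.000267). Of the epithelial markers, KRT8, KRT18 and KRT19 were abundant. KRT7 averaged 36.9 CPM in siBRG1 and 196 CPM in control, CDH1 averaged 5.87 CPM in siBRG1 and 3.05 CPM in control, and EPCAM 1.61 CPM in siBRG1 and 0.251 CPM in control. The 6 epithelial markers summed to between 3476 and 3733 CPM in siBRG1 and between 3935 and 4020.1 CPM in control. The 6 stromal markers summed to between 4736 and 5060.2 CPM in siBRG1 and between 2618 and 2803 CPM in control. Of them 5 rose and THY1 fell, beside 36.1% of all genes tested called higher and 36.5% called lower. COL1A1 averaged 2536 CPM in siBRG1 and 1955 CPM in control, and COL3A1 1616 CPM in siBRG1 and 294 CPM in control. The 4 endothelial markers summed to at most 21.3 CPM in siBRG1 and 20.1 CPM in control, and the 5 immune markers to at most 10.3 CPM in siBRG1 and 5.56 CPM in control, with CD3E at 0 counts in every library. The part of the stromal difference in the results below was not tested.

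All 10 AP-1 subunit genes passed the filter on low counts. Of them 5 rose (FOS, JUNB, JUND, BATF3 and MAFF), 4 fell (FOSB, FOSL1, FOSL2 and JUN) and ATF3 did not pass the test. That is 9 of 10, beside 72.6% of the 15830 genes tested, of which 36.1% were called higher and 36.5% lower. Beside that background the count is no result about the subunits. The sizes differed more than the counts. FOSL1 fell 4.70-fold, FOSB 1.92-fold, JUN 1.25-fold and FOSL2 1.22-fold, while FOS rose 2.40-fold, JUNB 2.13-fold, MAFF 1.97-fold, JUND 1.84-fold and BATF3 1.82-fold. Changes of at least 2-fold were called for 3 of the 10 (FOS, JUNB and FOSL1), beside 21.6% of all genes tested. The CPM of the groups did not overlap for 9 of the 10, beside 74.3% of all genes tested. The median log2 fold change of the 10 was 0.37, against −0.01 for all genes tested. In these bulk libraries fewer cells expressing a gene and less RNA per cell cannot be told apart.

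**Figure D1:**
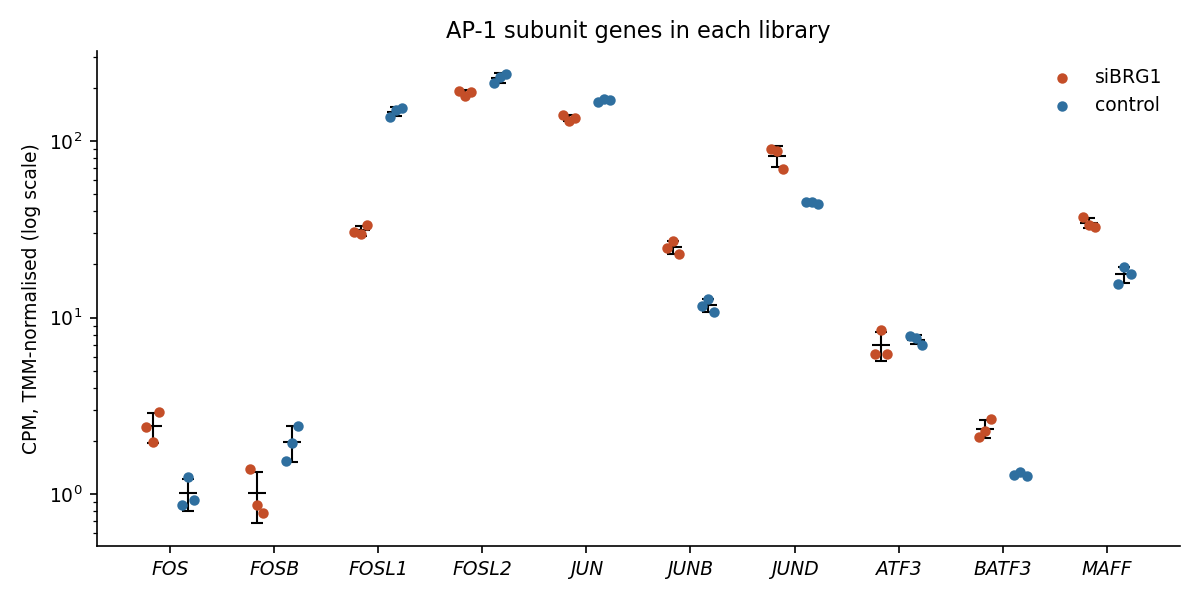
CPM of the 10 AP-1 subunit genes on a log axis, with siBRG1 (orange) left of control (blue). Points are libraries and bars the mean ± SD of 3 libraries. FOSL1 lies near 31.2 CPM in siBRG1 and 146 CPM in control, and ATF3 is the gene whose groups overlap.

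Among the FOS family, FOSL1 (which encodes FRA-1, a subunit linked to invasion and mesenchymal traits in epithelial cells) lies on chromosome 11, 65892049 to 65900573 on GRCh38. It stood at 30.3, 29.7 and 33.5 CPM in siBRG1 libraries, against 137, 149 and 153 CPM in control libraries. All siBRG1 libraries were far below all control libraries, and the libraries of each group lay close together. FOSL1 had a log2 fold change of −2.23 with an SE of 0.0586 and adjusted p = 2.85e-23. Of all genes tested, 574 had a lower log2 fold change, which is 3.63% of them.

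FOSL2, which encodes FRA-2, the closest relative of FRA-1 (chromosome 2, 28392448 to 28417312), changed far less. It stood at 191, 180.1 and 190.3 CPM in siBRG1 and at 212, 231 and 239.6 CPM in control. The groups were separate by a small margin, at a log2 fold change of −0.28 with an SE of 0.0440 and adjusted p = 1.82e-06. For FOSL1, leaving out single libraries gave log2 fold changes between −2.29 and −2.20, and for FOSL2 between −0.35 and −0.25, and these ranges did not meet. A sense intronic gene, AC104695.3, lies within FOSL2 on the same strand, and FLJ31356 overlaps it on the opposite strand.

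FOS, the founding member and the classic serum response gene (chromosome 14, 75278774 to 75282230), was scarce. Its counts were 33, 25 and 37 in siBRG1 and 42, 49 and 37 in control, from libraries of unequal depth. They correspond to 2.40, 1.96 and 2.90 CPM in siBRG1 and 0.865, 1.25 and 0.920 CPM in control. Every siBRG1 library was above every control library, and FOS had a log2 fold change of 1.26 with an SE of 0.279 and adjusted p = 0.000211. Summed over libraries the level was 2.42 CPM in siBRG1 (exact 95% interval 1.96 to 2.96) and 1.00 CPM in control (0.834 to 1.19). These intervals cover counting error only.

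FOSB, which like FOS encodes a subunit with a strong activation domain (chromosome 19, 45467995 to 45475179), went the other way. Its counts were 19, 11 and 10 in siBRG1 and 75, 76 and 98 in control, which gave 1.38, 0.862 and 0.784 CPM in siBRG1 and 1.54, 1.94 and 2.44 CPM in control. The siBRG1 libraries were all lower, although replicate 1 came close to control replicate 1. FOSB had a log2 fold change of −0.94 with an SE of 0.305 and adjusted p = 0.00716. FOS and FOSB moved in opposite directions, each from few counts. ERCC1 overlaps FOSB on the other strand. The reads on that other strand within FOSB numbered 0 in every siBRG1 library and 20, 27 and 16 in control.

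Among the JUN family, JUN (encoding c-Jun, the main partner of FOS proteins; chromosome 1, 58780788 to 58784327) stood at 139.9, 129.7 and 135 CPM in siBRG1 and at 166, 172 and 170.3 CPM in control. The groups did not overlap, and JUN had a log2 fold change of −0.33 with an SE of 0.0417 and adjusted p = 6.02e-08. JUNB (chromosome 19, 12791496 to 12793315), a JUN relative known to restrain c-Jun at some promoters, stood at 24.8, 27.0 and 22.9 CPM in siBRG1 and at 11.6, 12.8 and 10.7 CPM in control. Its lowest siBRG1 library was well above its highest control library, at a log2 fold change of 1.09 with an SE of 0.0914 and adjusted p = 1.38e-11.

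JUND (chromosome 19, 18279760 to 18281622), the JUN gene known for steady expression in resting cells, stood at 89.9, 87.3 and 69.2 CPM in siBRG1 and at 45.2, 45.3 and 43.7 CPM in control. The siBRG1 libraries were all higher but less alike, with replicate 3 below the others, so their SD of 11.3 CPM compares with 0.904 CPM in control. JUND had a log2 fold change of 0.88 with an SE of 0.0670 and adjusted p = 6.3e-12. JUN, JUNB and JUND are genes without introns that are rich in G and C. The transcripts of JUND and JUNB hold 69.7% and 64.9% GC, against a median of 48.0% over the genes tested. After removal of the trends on GC content and length, the log2 fold change of JUND was 0.46, that of JUNB 0.78 and that of JUN −0.51, and all 3 still passed the test. JUNB was then below a 2-fold change.

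ATF3, a stress-induced subunit that can repress as a homodimer (chromosome 1, 212565334 to 212620777), stood at 6.19, 8.47 and 6.20 CPM in siBRG1 and at 7.85, 7.65 and 6.99 CPM in control. Replicate 2 of siBRG1 was the highest of the 6 libraries and the other siBRG1 libraries the lowest, so the groups overlapped. It did not pass the test, at a log2 fold change of −0.11 with an SE of 0.136 and adjusted p = 0.466. BATF3 (chromosome 1, 212686418 to 212699985), known mainly from dendritic cells of the immune system, stood at 2.11, 2.27 and 2.67 CPM in siBRG1 and at 1.28, 1.33 and 1.27 CPM in control. All siBRG1 libraries were higher, from 92 counts in siBRG1 and 165 in control, at a log2 fold change of 0.86 with an SE of 0.251 and adjusted p = 0.00327.

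MAFF (chromosome 22, 38200767 to 38216511) encodes a small MAF protein, which lacks an activation domain and pairs with other basic leucine zipper proteins such as the NFE2L factors. It stood at 36.9, 33.5 and 32.7 CPM in siBRG1 and at 15.5, 19.3 and 17.7 CPM in control. The groups were well apart, at a log2 fold change of 0.98 with an SE of 0.0822 and adjusted p = 1.58e-11, or 0.68 with GC and length trends removed. PLA2G6 overlaps MAFF on the opposite strand and HOOK2 overlaps JUNB in the same way. Reads on the opposite strand made up 2.67% of stranded reads at MAFF in siBRG1 and 8.85% in control.

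The authors' deposited table gave the same direction for all 10 genes and called the same number, 9. Its log2 fold change was −2.26 (SE 0.0623) for FOSL1, 1.24 (SE 0.289) for FOS, and 1.07 (SE 0.0897) for JUNB. The authors' deposited values for the 10 minus the edgeR values gave differences between −0.0336 and −0.0229 in log2.

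**Figure D2:**
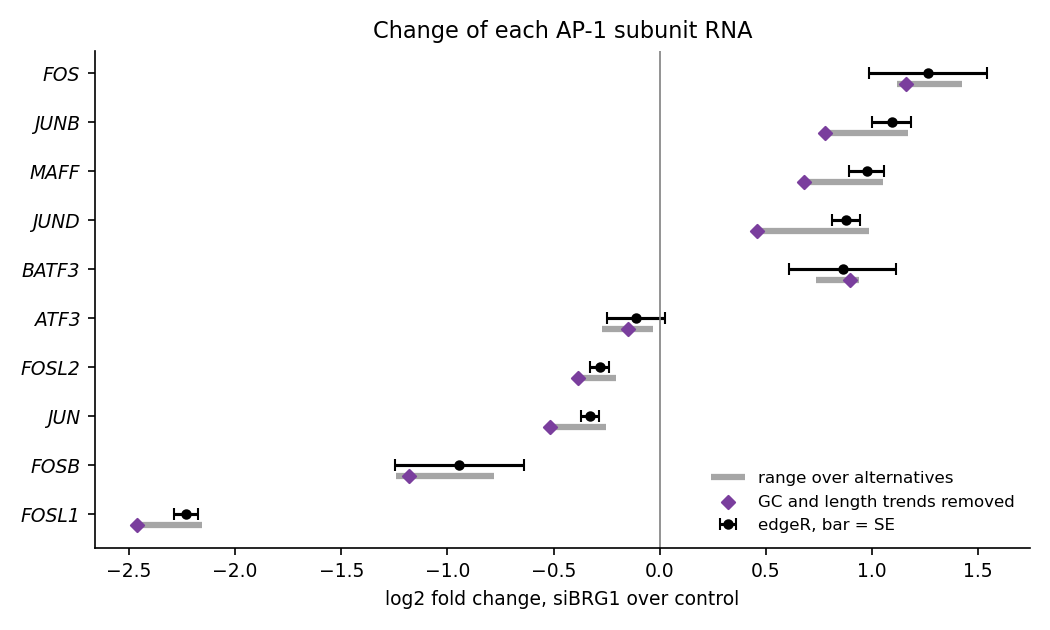
Log2 fold change (siBRG1 over control) of each AP-1 subunit gene, with the edgeR value and its SE in black, the range over the alternative settings in grey and the value with GC and length trends removed as a diamond. No grey range crosses 0, but the SE bar of ATF3, which did not pass the test, does. For JUND the diamond at 0.46 is the low end of the range.

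Levels of different genes can be compared only per length, so CPM were divided by the merged exon length of each gene in kilobases. In siBRG1 the highest levels were those of JUND (44.1 ± 6.07 CPM per kilobase, SD, n = 3) and JUN (38.1 ± 1.45), whose libraries overlapped, followed by FOSL2 (26.2 ± 0.860), FOSL1 (16.5 ± 1.08) and JUNB (13.7 ± 1.14). In control FOSL1 had the highest level per length (between 72.5 and 81.2 CPM per kilobase, mean 77.6), followed by JUN (47.8 ± 0.857), FOSL2 (31.8 ± 1.98), JUND (24.0 ± 0.485) and JUNB (6.43 ± 0.560). FOSL1 thus took place 4 in siBRG1 and place 1 in control, while JUND took place 1 in siBRG1 and place 4 in control. MAFF and ATF3 came next in both groups, MAFF at 6.12 ± 0.394 CPM per kilobase in siBRG1 and 3.12 ± 0.337 in control, and ATF3 at 1.72 ± 0.325 in siBRG1 and 1.85 ± 0.111 in control. BATF3, FOS and FOSB were below 1 CPM per kilobase in both groups. At the low end FOS overlapped BATF3 in siBRG1 and FOSB in control, and the other neighbours did not overlap.

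**Figure D3:**
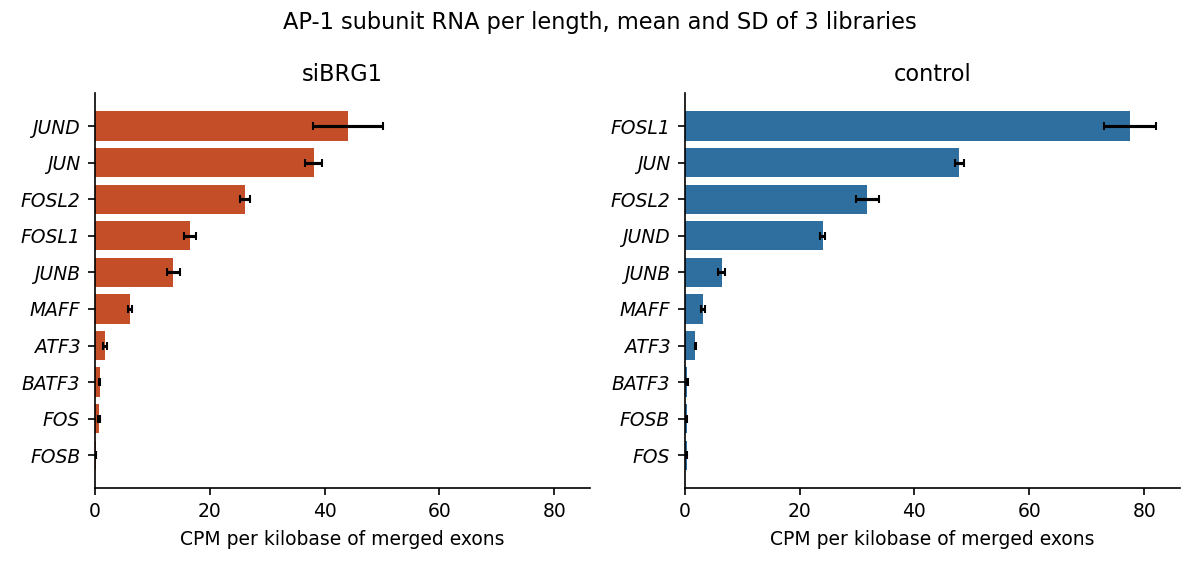
Level per length of the 10 AP-1 subunit genes in siBRG1 (left) and control (right), in CPM per kilobase of merged exons, ordered within each group. Bars are means and whiskers SDs of 3 libraries. FOSL1 stands at 16.5 in siBRG1 and 77.6 in control.

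Within the FOS family the makeup of the RNA, per length, was reversed between its 2 abundant members. Without scaling by length the order was not reversed. FOSL2 then exceeded FOSL1 in both groups, at 187 against 31.2 CPM in siBRG1 and 228 against 146 CPM in control. FOSL1 made up 36.7, 37.8 and 39.1% of FOS family RNA in siBRG1 libraries and 70.6, 70.5 and 70.4% in control libraries. FOSL2 made up 61.0, 60.4 and 58.6% in siBRG1 and 28.9 ± 0.101% in control (SD, n = 3). FOS and FOSB stayed minor, at 1.71 ± 0.261% and 0.418 ± 0.135% in siBRG1 and 0.283 ± 0.0528% and 0.321 ± 0.0555% in control (SD, n = 3). The SD within a group was at most 1.25 percentage points for FOSL1 and FOSL2, against differences of −32.6 and 31.1 percentage points. These differences mirror each other because the 2 genes make up nearly all of the family RNA. The share of FOSL2 was higher in siBRG1 although its own level was lower there (log2 fold change −0.28). The ratio of FOSL2 to FOSL1 was 1.59 ± 0.0825 in siBRG1 and 0.410 ± 0.00215 in control.

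Within the JUN family JUN made up 39.9 ± 3.21% of the RNA per length in siBRG1 and 61.1 ± 0.862% in control. JUND made up 45.8 ± 3.10% in siBRG1 and 30.7 ± 0.547% in control, and JUNB 14.3 ± 0.826% in siBRG1 and 8.20 ± 0.582% in control. For the shares of FOS, FOSL1, FOSL2, JUN, JUNB and JUND the groups did not overlap (two-sided exact permutation test, p = 0.1, which is the lowest value that 3 against 3 can reach). For the share of FOSB they overlapped (exact permutation p = 0.4).

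Summed over its members, FOS family RNA stood at 43.6 ± 1.86 CPM per kilobase in siBRG1 and 110.1 ± 6.58 in control, a log2 ratio of −1.34. JUN family RNA stood at 95.9 ± 7.10 CPM per kilobase in siBRG1 and 78.3 ± 1.38 in control, a log2 ratio of 0.29. The FOS to JUN ratio was 0.431, 0.424 and 0.516 in siBRG1 libraries and 1.33, 1.40 and 1.49 in control libraries, so JUN family RNA exceeded FOS family RNA in siBRG1 and the reverse held in control. Each of these gave an exact permutation p of 0.1, again the lowest possible. Without scaling by length the log2 ratios were −0.77 for the FOS family, 0.10 for the JUN family and −0.86 for the ratio of the families, against −1.62 with it. With GC and length trends removed the log2 ratio of the JUN family was 0.0013 and that of the FOS family −1.51. RNA levels do not give the amounts of the proteins or their dimers, which were not measured here.

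**Figure D4:**
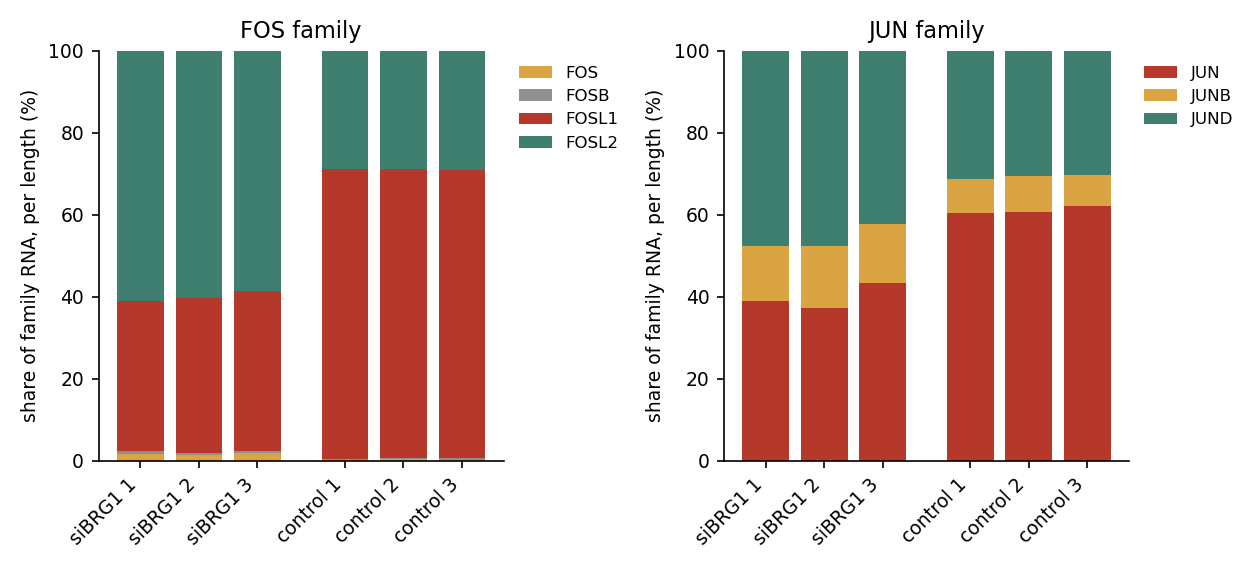
Share of each gene in the RNA of the FOS family (left) and the JUN family (right), per length and in percent, for each of 3 siBRG1 and 3 control libraries. FOSL1 takes 36.7 to 39.1% in siBRG1 and 70.4 to 70.6% in control.

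The genes around the subunits were described by lists, which were chosen with earlier results of these data known. Of 20 tested of 24 other basic leucine zipper genes that pair or compete with AP-1 subunits, 7 rose and 6 fell (median 0.02). That is 65% called, beside 72.6% of all genes tested (36.1% higher and 36.5% lower). NFE2L3 (0.92, SE 0.0469), BACH2 (0.76, SE 0.210) and ATF1 (0.59, SE 0.0621) had the largest log2 rises of those with a mean of at least 50 counts. CREB5 (−1.58, SE 0.155) and MAF (−0.86, SE 0.106) were among those that fell. MAFK, a small MAF gene beside MAFF, did not pass, at 35.1 CPM in siBRG1 and 33.3 CPM in control, and MAFG rose by a log2 fold change of 0.20. BATF had 0 counts in every library.

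Of 19 tested of 20 genes of the MAP kinase routes to AP-1, 8 rose and 10 fell (median −0.20), so that 94.7% were called, beside 72.6% of all genes tested. MAPK3, which encodes ERK1, rose (log2 fold change 1.00 with an SE of 0.0562). MAP2K6, a kinase of the p38 route, rose by 0.95 (SE 0.147), as did SRF by 0.56 (SE 0.0554). ELK4 and ELK3, ternary complex factors that act with SRF at immediate early genes, fell by 1.14 (SE 0.0495) and 0.45 (SE 0.0465) on the log2 scale, and MAP2K3 fell by 0.77 (SE 0.0524). The JNK gene MAPK8 was nearly equal, at 63.8 CPM in both groups.

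Of 8 genes for the turnover or modification of AP-1 proteins, 3 rose and 3 fell (median 0.07), and the 75% called lie near the 72.6% of all genes tested. TRIB2, a pseudokinase adaptor, rose most, at 16.6 ± 2.45 CPM in siBRG1 and 3.70 ± 0.326 CPM in control, with adjusted p = 6.52e-15 and a log2 fold change of 2.17 (SE 0.129). RNF187 (0.75, SE 0.170) also rose. TRIB1 (−0.47, SE 0.0884), FBXW7 (−0.42, SE 0.0707), a ligase receptor for phosphorylated c-Jun, and ITCH (−0.22, SE 0.0387), a ligase for JUN proteins, fell.

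Of 19 tested of 23 other immediate early genes, 5 rose and 9 fell (median −0.14), and the 73.7% called lie near the 72.6% of all genes tested. EGR1 rose as FOS and JUNB did, at 14.1, 18.2 and 12.9 CPM in siBRG1 and 11.3, 11.3 and 9.43 CPM in control (log2 fold change 0.49, SE 0.115). BTG2 (0.87, SE 0.132) and IER3 (0.57, SE 0.215) rose too, and these 3 were the largest rises of genes with a mean of at least 50 counts. ZFP36, a factor of mRNA decay (−0.96, SE 0.0786), KLF10 (−0.67, SE 0.0734) and SGK1 (−0.52, SE 0.0422) had the largest falls of such genes. IER2, IER5, KLF2, KLF4 and NR4A1 did not pass.

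Of 16 tested of 20 genes known as AP-1 targets, 10 fell and 4 rose (median −0.67), so that 87.5% were called, beside 72.6% of all genes tested (36.5% lower and 36.1% higher). At least 2-fold changes were called for 6 that fell and 1 that rose, beside 21.6% of all genes tested in either direction. Of the 15830 genes tested, 1763 fell and 1649 rose by at least 2-fold. Because the list was chosen with earlier results known, its counts and median are a description and not a test. HBEGF, which encodes an EGF receptor ligand, averaged 7.52 ± 0.562 CPM in siBRG1 and 36.2 ± 2.63 CPM in control, with adjusted p = 2.26e-18 and a log2 fold change of −2.26 (SE 0.0946). CCND1, which encodes cyclin D1, averaged 138 ± 12.1 CPM in siBRG1 and 564 ± 12.5 CPM in control (log2 fold change −2.03, SE 0.0467). MMP1, an interstitial collagenase gene and a classic AP-1 target, had 5, 1 and 0 counts in siBRG1 and 536, 384 and 378 in control, and its fitted log2 fold change of −6.00 (SE 0.318) is uncertain in size at 6 counts. PLAU, which encodes urokinase and is also an AP-1 target, rose, at 101.6, 81.3 and 118 CPM in siBRG1 and 21.3, 21.4 and 18.8 CPM in control, with adjusted p = 2.5e-06 and a log2 fold change of 2.29 (SE 0.137). TIMP1 (0.69, SE 0.0504) and HMOX1 (0.55, SE 0.0966) rose as well. These targets are shared with other factors, and whether the fall of FOSL1 bears on them was not tested.

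**Figure D5:**
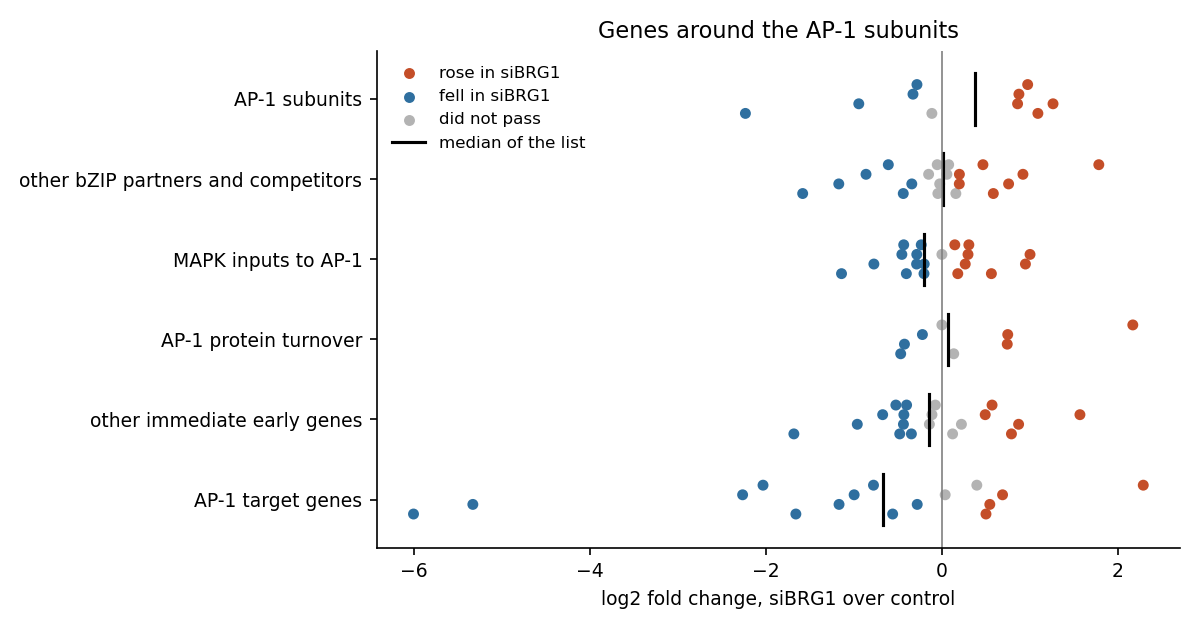
Log2 fold changes (siBRG1 over control) of the tested genes of 6 lists. Each point is a gene, coloured by its call, and the black line is the median of the list, which is 0.37 for the subunits and −0.67 for AP-1 targets.

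By pattern over the 6 libraries, the 3 protein-coding genes nearest to FOSL1 among 10735 with a mean of at least 100 counts were HBEGF, NEXN and CCDC9B. Their root mean square distances in centred log2 CPM were 0.0480, 0.0847 and 0.0918. NEXN, which encodes an actin-binding protein, averaged 17.5 CPM in siBRG1 and 81.4 CPM in control. CCDC9B averaged 24.1 CPM in siBRG1 and 106 CPM in control. The 3 nearest to FOS, the subunit with the largest rise, were PRKCE, EXD3 and MCEE, at distances of 0.0945, 0.114 and 0.114. PRKCE, which encodes a protein kinase C, had a log2 fold change of 1.27 (SE 0.106). The 6 libraries form 2 groups, which every such distance shares.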

How the data were processed

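For each of the 6 libraries the authors deposited raw counts per gene in the layout of STAR, unstranded and for each strand. Per the submitters' processing notes reads were handled with cutadapt, Trim Galore, FastQC and STAR on GRCh38.p12, and DESeq2 was used. Versions and the annotation release are not given in the sources used here. The authors' deposited comparison holds, per the file headers, a mean signal over normalised libraries (not used here), log2 fold changes, p-values, and scores (the Wald statistic and a weight, not used here).

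Of 58336 identifiers 58216 matched GENCODE 29 without their version. The strand column with the larger total (column 4) was used. Entries naming no gene were left out: unmapped, multimapping, featureless and ambiguous reads made up 1.84, 20.3, 3.97 and 3.11% of reads in siBRG1 and 1.64, 9.81, 13.3 and 4.16% in control. The comparison used edgeR 4.0.16 under R 4.3.3 (TMM, filterByExpr, robust quasi-likelihood, two-sided), adjusted by Benjamini-Hochberg over 15830 genes with a threshold of 0.05. The SE is the absolute log2 fold change over the square root of F. On raw gene-count totals, before TMM, 3 counts are at most 0.242 CPM in siBRG1 and 0.0746 CPM in control. No replicate pair matched within counting noise (chi-square over degrees of freedom between 2.70 and 4.79). The script was tested on simulated data. Shares were compared by exact permutation.

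The subunits and lists were chosen with earlier results of these data known. Named genes are the 10 subunits, SMARCA4, of each list around them up to 3 rises and 3 falls past the threshold with the largest change and a mean of at least 50 counts, and the 3 nearest genes of 2 subunits. Some genes that this rule names are not reported here. MAFK, MAFG, BATF, MAPK8, marker genes and members that did not pass were named outside that rule after their values were seen. Comparison of protein sequences was planned and not done.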

Additional observations from a re-analysis of the deposited data

Results flagged for a closer look

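Reads on the strand opposite to the gene lie outside the sense-strand counts used for the fold changes. At JUNB and JUND they were higher in every siBRG1 library than in any control library. At FOSL1, FOSB and MAFF they were lower in every siBRG1 library. The share of all genes without overlap on the opposite strand is not given here. On the sense strand the groups did not overlap for 74.3% of all genes tested. Without a share for the opposite strand, the lack of overlap at these genes is not read as a result about the subunits. At FOSL1 the reads on the opposite strand stood at 0.146, 0.941 and 0.235 CPM in siBRG1 and at 1.54, 1.40 and 1.59 CPM in control. At JUNB they averaged 0.741 CPM in siBRG1 and 0.204 CPM in control, from 9, 9 and 11 counts in siBRG1 and 4, 11 and 10 counts in control. At JUND they averaged 0.807 CPM in siBRG1 and 0.496 CPM in control, from 16, 8 and 8 counts in siBRG1 and 27, 17 and 20 counts in control. As a share of stranded reads they were 2.88% in siBRG1 and 1.64% in control at JUNB, and 0.981% in siBRG1 and 1.10% in control at JUND. At FOSL1 this share was 1.37% in siBRG1, from 2, 12 and 3 counts, and 1.03% in control, so it was not lower in siBRG1. It was 0% in siBRG1 and 20.2% in control at FOSB, and 2.67% in siBRG1 and 8.85% in control at MAFF. JUNB and JUND rose on their own strand, FOSL1 and FOSB fell there, and MAFF rose.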

How the results depend on the processing

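The 10 subunit genes kept their direction and their side of the threshold in all 159 alternatives that gave a value. FOS was not tested with at least 50 counts in 3 libraries, where 8 subunits were called instead of 9. The alternatives were DESeq2, DESeq2 size factors, library totals, no count filter, the stricter filter, unstranded counts, protein-coding genes alone, GC and length trends removed, a replicate block, control libraries thinned to siBRG1 depth, and leaving out each library. FOSL1 ranged from −2.46 to −2.16, JUND from 0.46 to 0.99 and FOSB from −1.24 to −0.78 in log2 fold change, and FOSB reached its highest adjusted p, 0.0477 by edgeR, without control replicate 3. ATF3 had adjusted p between 0.1 and 0.868. With no count filter the median log2 fold change of all genes was −0.30.

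Samples of the same replicate number did not deviate together (correlations −0.0125, 0.0203 and 0.00765). These values show no pairing by number, but with 3 libraries per group they cannot exclude a weak one. With a replicate block 11194 genes were called against 11498, and 9 subunits as before.

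Leaving out single libraries, 9 subunits were called each time (5 higher, 4 lower), 10291 to 11692 genes in all, and SMARCA4 had log2 fold changes of −2.21 to −1.89. The lists held 13 to 15 (other basic leucine zipper genes), 17 to 18 (MAP kinase routes), 6 (turnover), 12 to 15 (immediate early) and 13 to 14 (targets) called genes. The differences in share, siBRG1 minus control, were 1.29 to 1.55 (FOS), 0.0212 to 0.150 (FOSB), −33.2 to −32.0 (FOSL1), 30.6 to 31.8 (FOSL2), −23.0 to −19.9 (JUN), 5.68 to 6.51 (JUNB) and 14.2 to 16.9 percentage points (JUND). The log2 ratios were −1.38 to −1.30 (FOS family), 0.25 to 0.35 (JUN family) and −1.72 to −1.57 (FOS to JUN).

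Without scaling by length the share differences were 0.820 (FOS), −24.8 (FOSL1), 24.0 (FOSL2) and 5.13 (JUNB) percentage points, that of FOSB was −0.0648 instead of 0.0971, and the log2 ratios were −0.77 (FOS family), 0.10 (JUN family) and −0.86 (FOS to JUN). With GC and length trends removed, chosen for the shares and sums after the data were seen, the share differences were −34.5 (FOSL1), 33.0 (FOSL2), −17.8 (JUN) and 11.9 (JUND), and the log2 ratios −1.51 (FOS family) and 0.0013 (JUN family). The cause was not tested. By longest transcript 8 of 10 genes kept their place in the order of levels in siBRG1 and all 10 in control. The depth of siBRG1 limits FOS, FOSB and BATF3, with 95, 40 and 92 counts over the group.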
